A study of Mus musculus with 94 samples.

Results

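A set of 10 genes of natural killer (NK) and cytotoxic effector cells were followed in 94 4T1 tumors: the receptor genes Ncr1, Klrb1c and Klrk1, the granule genes Nkg7, Gzma, Gzmb and Prf1, the transcription factor genes Eomes and Tbx21, and the cytokine gene Ifng. They were chosen by symbol, as the 10 rows with these names among 49080 genes in the deposited matrix, and all 10 passed the filter on low counts in every comparison below. 4T1 is a mouse mammary carcinoma cell line used as a model of triple negative breast cancer. The cells were implanted in the right hind limb of female BALB/c mice at 8 weeks of age, and tumors of 100 to 200 mm3 were allocated to 4 groups: a single 6 Gy dose of irradiation (IR) with indomethacin (6 Gy + INDO, 24 tumors), 6 Gy alone (25 tumors), indomethacin alone (INDO, 25 tumors) and untreated controls (control, 20 tumors). INDO, an inhibitor of both cyclooxygenases, was given in the drinking water at 30 mg/L throughout. Whole tumors were collected on days 1, 3, 7, 15 and 23, with 4 or 5 tumors per treated group and day, and 4, 5, 5, 3 and 3 controls in day order. Every tumor came from the same cell line, the replicate numbers only name tumors, and no source used here says which mice shared a cage or a day of RNA extraction, so the p-values measure the spread between these tumors.

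NK cells kill tumor cells without prior immunization, and they share their killing machinery with CD8+ T cells. Activating receptors on the NK cell surface bind ligands on a target, after which granules that hold perforin and granzymes are released into the contact zone: perforin opens the membrane and the granzymes cut proteins inside the target. T-bet and Eomes, the proteins of Tbx21 and Eomes, are the T-box factors that direct maturation and effector function of both cell types, and interferon-γ is the main cytokine that they secrete. Of the 10 genes, Ncr1, which encodes the receptor NKp46, is the one most restricted to NK cells and related innate lymphoid cells. Klrb1c encodes NKR-P1C, which carries the NK1.1 epitope in C57BL/6 but not in BALB/c mice. Klrk1 encodes NKG2D, and Nkg7 a granule membrane protein, both of NK and CD8+ T cells.

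Positions are in the mm10 build. Ncr1 is at chr7:4337724-4345164 and Nkg7 at chr7:43437073-43438249, Klrb1c at chr6:128778485-128789215 and Klrk1 at chr6:129610323-129623864, and Prf1 at chr10:61297833-61304680 and Ifng at chr10:118441046-118445892. Gzma is at chr13:113093825-113100981, Gzmb at chr14:56258838-56262260, Eomes at chr9:118478212-118486132 and Tbx21 at chr11:97098071-97115331. In GENCODE M21 Klrb1c overlaps the gene Gm44511 on the same strand, and 89.4% of its values were not whole. No source used here says how reads that fit several genes were divided. Ifng overlaps Gm49751 on the same strand (30.9% of values not whole) and Eomes the antisense gene Gm33460 (18.1%), and no source used here says how the counting used strand. The counts of the other 7 genes were whole in every tumor. The reads of BALB/c tumors were counted on a C57BL/6 reference, in which the NK gene complex that holds Klrb1c and Klrk1 is known to differ between these strains.

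All 10 genes matched RefSeq promoters of GRCm38.p6, the same build as mm10, which hold 250 bases before and 50 after the transcription start. A total of 4 motifs known from lymphocyte gene promoters were searched on both strands. The RUNX core, TGTGGT, was in 7 of the 10 promoters (Ncr1, Klrb1c, Klrk1, Nkg7, Gzma, Gzmb and Prf1), and in 16.8% of the 32851 mouse promoters of this length. The T-box core, GTGTGA, was in 3 (Ncr1, Nkg7 and Gzmb; 14.5% of all), the STAT letters TTCNNNGAA in 3 (Nkg7, Gzmb and Ifng; 8.3%) and the AP-1 letters TGANTCA in 2 (Klrk1 and Gzmb; 7.81%), with no overlap between matches of different motifs. Eomes and Tbx21 held none of the 4. The stretch of 190 bases that ends 11 bases before the start is shown for both genes with a pair of RUNX cores, for Prf1, and for Eomes, whose RNA behaved unlike the others below; capitals mark the RUNX core, which reads ACCACA on the reverse strand.
Ncr1 (chr7:4337515-4337704, plus strand): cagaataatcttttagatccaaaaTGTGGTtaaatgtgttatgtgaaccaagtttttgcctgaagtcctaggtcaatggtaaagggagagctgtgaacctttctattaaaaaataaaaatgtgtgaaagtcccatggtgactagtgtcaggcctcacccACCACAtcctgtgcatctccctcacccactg
Gzmb (chr14:56262345-56262534, minus strand): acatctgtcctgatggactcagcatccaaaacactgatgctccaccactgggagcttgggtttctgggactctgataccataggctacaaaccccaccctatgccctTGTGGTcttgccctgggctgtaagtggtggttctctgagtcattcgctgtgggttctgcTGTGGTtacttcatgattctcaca
Prf1 (chr10:61297636-61297825, plus strand): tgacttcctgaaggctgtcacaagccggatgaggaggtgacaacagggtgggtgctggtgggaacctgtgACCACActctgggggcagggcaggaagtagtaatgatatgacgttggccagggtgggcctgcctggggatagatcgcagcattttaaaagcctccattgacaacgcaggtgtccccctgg
Eomes (chr9:118477989-118478178, plus strand): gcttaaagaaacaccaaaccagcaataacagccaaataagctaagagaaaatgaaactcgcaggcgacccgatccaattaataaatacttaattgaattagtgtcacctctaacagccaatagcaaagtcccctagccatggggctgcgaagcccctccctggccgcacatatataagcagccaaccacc
Ncr1 holds the RUNX core at -176 to -171 and, reversed, at -41 to -36, Gzmb at -93 to -88 and -34 to -29, and Prf1, reversed, at -130 to -125. A match describes these letters and does not show that a factor bound there.

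The libraries held 20995830 to 109300093 counts. The median 6 Gy + INDO library was smaller than the median control library on every day. On day 7 the medians were 32016529 counts with 6 Gy + INDO, 73856099 after 6 Gy, 50979373 with INDO and 87309377 in controls. What part this had in the 6 Gy + INDO comparisons of genes with few reads was not tested. Levels are given as CPM, the counts of a gene divided by the library total and scaled with TMM factors. Epcam, keratin and other tumor epithelium markers summed to 1499 to 4055 CPM in these tumors of an epithelial line, but fibroblast markers summed to 235 to 14963 CPM and skeletal muscle markers to 1.88 to 7176 CPM, so that each tumor was a mixture. In 11 tumors, 8 of them of 6 Gy + INDO on days 3, 7 and 23, olfactory and vomeronasal receptor genes summed to 333 to 1951 CPM against at most 131 CPM in the others, and results that rest on them are given without them too. Apart from INDO day 1 replicate 5, at 57219604 counts, these 11 libraries held 20995830 to 32016529 counts. The 8 were 3 of 4 tumors of 6 Gy + INDO on day 3, 3 of 5 on day 7 and 2 of 5 on day 23. Fits without them rest on few tumors of that group, and what a lost call reflects was not tested. The 10 genes were low: the median tumor held 0.17 CPM per kb of exon for Ncr1, 0.11 for Klrb1c and 0.10 for Tbx21, 0.46 for Ifng, 0.69 for Klrk1, between 0.98 and 1.21 for Prf1, Eomes and Nkg7, 1.83 for Gzma and 4.70 for Gzmb. No count was recorded for Ncr1 in 4 tumors, for Ifng in 3 and for Klrb1c in 2.

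On day 1, 8 of the 10 genes fell with 6 Gy + INDO, 7 fell after 6 Gy and 3 fell with INDO, where 13.3%, 9.43% and 8.89% of 22276 genes were called lower. The limit for a call was an adjusted p of 0.05 in edgeR's quasi-likelihood test, adjusted over all genes tested on the day. After a gene, brackets hold its log2 fold change and, where given, its error, marked SE, and last edgeR's adjusted p. None of the 10 was called higher (background 10.7%, 6.15% and 5.81%), none was higher at an unadjusted p under 0.05 either, and DESeq2 called 8, 7 and 5 lower and 0 higher. Every treated tumor was below every control for 5 of the 10 with 6 Gy + INDO, 6 after 6 Gy and 4 with INDO, as it was for 13.7%, 8.93% and 12.1% of all genes. In these bulk samples, fewer cells of a type and less RNA per cell cannot be told apart.

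Ncr1 measured 0, 0.212, 0, 0.0369 and 0 CPM in 6 Gy + INDO tumors on day 1, 0.148, 0, 0.0682, 0.0451 and 0.0675 CPM after 6 Gy, 0.106, 0.15, 0.107, 0.137 and 0.138 CPM with INDO, and 0.853, 0.498, 1.26 and 1.68 CPM in controls. All treated tumors were below all controls. Its log2 fold change was -4.27 (SE 0.75, adjusted p = 0.000491) with 6 Gy + INDO, -3.97 (SE 0.74, adjusted p = 0.00125) after 6 Gy and -3.01 (SE 0.69, adjusted p = 0.00703) with INDO. The 6 Gy + INDO value rested in part on replicate 2, at 0.212 CPM, and was -6.59 without it. Klrb1c fell in the same 3 comparisons (-3.61, -2.27 and -2.21, the value for 6 Gy being -2.97 without 6 Gy replicate 1). For INDO, the Klrb1c call was lost in 4 of 9 fits that left out a tumor. Klrk1 fell with 6 Gy + INDO and after 6 Gy (-1.57, SE 0.33, 0.0021, and -1.43, SE 0.33, 0.0065), but averaged 3.55 ± 1.04 CPM with INDO and 4.82 ± 1.70 CPM in controls (SD, n = 5 and 4), and INDO was not called (-0.41, adjusted p = 0.42).

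Among the granule genes, Nkg7 measured 0.0749 to 0.303 CPM in 6 Gy + INDO tumors, 0.0601 to 0.291 CPM after 6 Gy and 0.0751 to 0.449 CPM with INDO, against 0.351, 1.2, 1.22 and 1.62 CPM in controls, and fell in all 3 groups (-2.80, -3.03 and -2.28, SE 0.54, 0.55 and 0.53). Only the highest INDO tumor overlapped the lowest control. Gzma, the tryptase-like granzyme A, fell with 6 Gy + INDO (-3.07, SE 0.78, 0.0078) and at the edge of the limit after 6 Gy (-2.27, 0.049, lost in 8 of 9 fits without 1 tumor and with no filter on low counts). Without replicate 2 of the treated group these values were -4.26 and -3.03. Prf1, the pore-forming perforin, fell with 6 Gy + INDO (-1.85, SE 0.55, 0.019) and after 6 Gy (-2.21, SE 0.56, 0.012). The 6 Gy + INDO call was lost with all 94 tumors in 1 fit and in 2 of 9 fits without 1 tumor.

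Gzmb, the caspase-activating granzyme B, measured 0.48, 3.88, 0.77, 0.406 and 0.479 CPM in 6 Gy + INDO tumors, 3.78, 7.06, 0.954, 1.22 and 0.824 CPM after 6 Gy, 4.65, 0.901, 2.37, 2.92 and 0.74 CPM with INDO, and 6.33, 3.43, 6.98 and 9.32 CPM in controls. The groups overlapped through 1 or 2 tumors each. Gzmb was called with 6 Gy + INDO (-2.42, SE 0.76, adjusted p = 0.026, lost in 6 of 9 fits without 1 tumor, and -3.60 without replicate 2) and not after 6 Gy (-1.24, 0.28) or with INDO (-1.46, 0.19).

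Tbx21 and Eomes, which encode related factors, were far apart. Tbx21 fell with 6 Gy + INDO (-2.31, SE 0.58, 0.0071) and after 6 Gy (-2.67, SE 0.60, 0.00506), with 0.0185 to 0.227 CPM, 0.015 to 0.19 CPM and, with INDO, 0.0642 to 0.178 CPM, against 0.249 to 0.571 CPM in controls, so that no treated tumor reached a control. The Tbx21 values were -3.17 without 6 Gy + INDO replicate 2 and -3.40 without 6 Gy replicate 1. Eomes averaged 4.85 ± 0.948 CPM with 6 Gy + INDO, 4.34 ± 0.690 CPM after 6 Gy, 4.42 ± 0.635 CPM with INDO (SD, n = 5 each) and 4.97 ± 0.148 CPM in controls (n = 4), and its fold changes were -0.03, -0.19 and -0.13 on the log2 scale (SE 0.16 each). Ifng was not called (-1.31, -1.83 and 0.49, SE 0.96, 1.01 and 0.91), and controls themselves spread over 0.0566 to 0.476 CPM. Without replicate 2 of 6 Gy + INDO, at 0.454 CPM, Ifng was called in that group (-4.12), and without INDO replicate 1 the INDO value was -0.35 and not called. The call in 6 Gy + INDO follows the removal of its highest tumor and is no support for a fall.

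Summed markers of several other cell types were also lower on day 1. The 12 T cell markers summed to 55.7 to 71.6 CPM with 6 Gy + INDO, 55.5 to 84.0 CPM after 6 Gy and 43.4 to 76.8 CPM with INDO, against 96.0 to 135 CPM in controls. Most of this sum was Thy1, which stromal cells also express (median over the 94 tumors 51.1 CPM, of 63.5 CPM for the sum). Without Thy1 the other 11 markers summed to 4.40 to 9.65, 5.08 to 11.2 and 5.85 to 12.8 CPM in the treated groups, against 18.8 to 42.2 CPM in controls, again with no overlap. Only Cd8b1 was at 0 in any of the 94 tumors (3 tumors). Macrophage markers summed to 488 to 620, 463 to 744 and 514 to 606 CPM against 1365 to 1938 CPM in controls, and endothelial markers to 70.1 to 117, 78.9 to 125 and 86.3 to 140 CPM against 196 to 268 CPM, with none of these markers at 0 in any tumor. Fibroblast markers summed to 5063 to 7041, 1965 to 5757 and 3446 to 7349 CPM in these treated groups against 5918 to 13776 CPM in controls, and adipocyte markers, of which 4 of 5 were at 0 in 10 to 33 of the 94 tumors, to 3.46 to 5.35, 1.71 to 8.71 and 1.56 to 16.1 CPM against 20.2 to 60.4 CPM. A further 4 NK markers, Klre1, Klrd1, Klri2 and S1pr5, are not among the 10 genes. They summed to 0.240 to 1.46, 0.218 to 1.197 and 0.601 to 1.93 CPM against 0.860 to 2.88 CPM in controls. Each treated group overlapped only the lowest control, as the other controls held 2.32 to 2.88 CPM. Tumor epithelium markers summed to 2251 to 2631, 2498 to 3224 and 2061 to 2472 CPM against 2271 to 2512 CPM, with overlap in each group. The part of these cell types in the lower NK and cytotoxic genes was not tested.

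**Figure D1:**
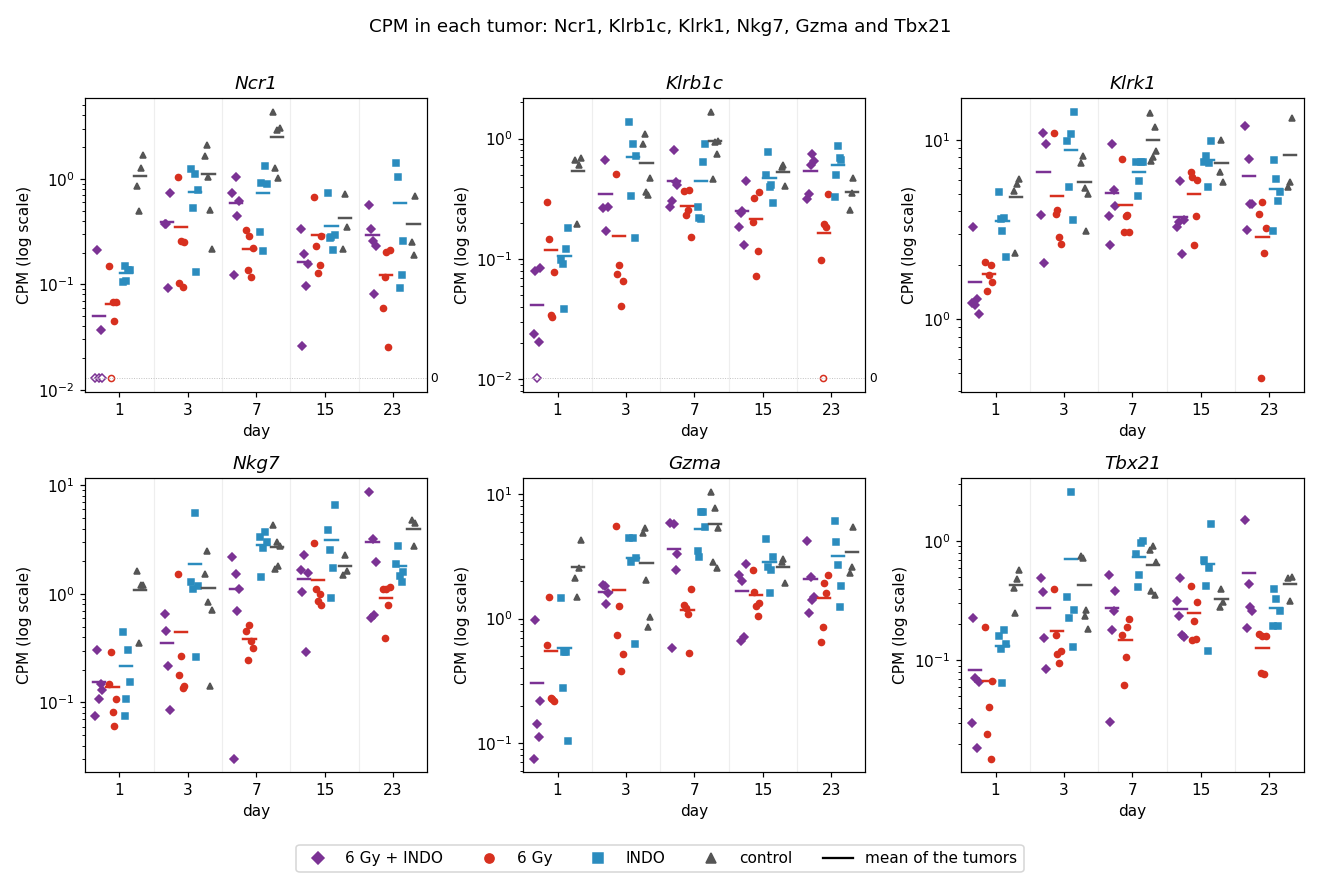
CPM on a log axis in each of 94 tumors for Ncr1, Klrb1c, Klrk1, Nkg7, Gzma and Tbx21, by day and treatment. Each point is a tumor, bars are means over tumors, and open points on the dotted line are tumors at 0. On day 1 all 15 treated tumors lay below all 4 controls for Ncr1 and Tbx21.

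On day 3 no gene of the 10 was called in any treated group against control, where 19.5% (6 Gy + INDO), 7.72% (6 Gy) and 6.33% (INDO) of 21814 genes were called in either direction. At an unadjusted p under 0.05, 0, 2 and 0 of the 10 were lower and none was higher, and DESeq2 called 0, 1 and 0. The day was marked by 1 tumor: after 6 Gy, Gzmb measured 18.3 CPM in replicate 1 and 0.769 to 2.47 CPM in the other 4, against 1.38 to 8.77 CPM in 5 controls. Replicate 1 was the highest of its group for 9 of the 10 genes, all but Eomes, and without it Ncr1 and Klrb1c were called lower after 6 Gy (-2.62 and -3.19). Leaving out the highest tumor lowers a group by itself, so these calls are no support for a fall. Nkg7 measured 1.52 CPM there and 0.135 to 0.27 CPM in the other 6 Gy tumors. The 11 T cell markers other than Thy1 summed to 26.8 CPM in this tumor against 4.76 to 7.93 CPM in the other 4, and the 4 NK markers that are not among the 10 genes (Klre1, Klrd1, Klri2 and S1pr5) to 2.94 against 0.405 to 0.946 CPM.

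The control tumors spread as widely on day 3, with Nkg7 at 1.53, 2.5, 0.836, 0.142 and 0.707 CPM and Gzma at 4.85, 5.33, 2.05, 0.851 and 1.03 CPM. In INDO tumors on day 3, Tbx21 measured 2.59 CPM in replicate 3 and 0.13 to 0.337 CPM in the other 4, and Nkg7 5.57 CPM against 0.26 to 1.29 CPM. That tumor held 320 CPM of the T cell markers other than Thy1 against 8.46 to 20.3 CPM in the other 4, and it was the highest of all 94 for Tbx21 and Eomes (8.58 CPM). Whether T cells account for it was not tested.

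Among the 3 treatments on day 7, the fold changes of the 3 receptor genes were lowest after 6 Gy, and Gzmb and Prf1 were not called in any treatment. After 6 Gy, 7 of the 10 genes fell (background 10.3% lower and 5.69% higher of 21874 genes), with 6 Gy + INDO 3 fell (21.2% and 24.8%) and with INDO 1 fell (11.7% and 12.7%). None of the 10 was called higher against control, none was higher at an unadjusted p under 0.05, and DESeq2 called 7, 5 and 1 lower and 0 higher. The 7 after 6 Gy were Ncr1, Klrb1c, Klrk1, Nkg7, Gzma, Tbx21 and Ifng, and for Ncr1, Klrb1c, Nkg7, Gzma and Tbx21 all 5 irradiated tumors were below all 5 controls, as they were for 8.43% of all genes. The share for 6 Gy + INDO and that for INDO were near or below the background, and nothing particular to these genes is read from them.

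Ncr1 was 0.122 to 1.04 CPM with 6 Gy + INDO, 0.117 to 0.328 CPM after 6 Gy and 0.208 to 1.33 CPM with INDO, against 1.02 to 4.35 CPM in controls. A single tumor of 6 Gy + INDO and a single tumor of INDO reached into the control range, and none of 6 Gy did. The log2 fold change of Ncr1 after 6 Gy was -3.52 (SE 0.57, adjusted p = 0.000409). The INDO call (-1.71, SE 0.53, adjusted p = 0.0269) was lost with housekeeping scaling and in 4 of 10 fits without 1 tumor, and the 6 Gy + INDO call (-2.02, SE 0.54, 0.00648) without the high-receptor tumors, which left 1 gene called lower with 6 Gy + INDO. Klrb1c fell after 6 Gy (-1.78, SE 0.44, adjusted p = 0.0093), at 0.153 to 0.373 CPM against 0.46 to 1.68 CPM in controls. Klrk1 fell after 6 Gy, by a log2 fold change of -1.23 (SE 0.31, 0.0111), and with 6 Gy + INDO (-0.91, SE 0.31, 0.0248, lost with housekeeping scaling and in 3 of 10 fits without 1 tumor), and its highest 6 Gy tumor, at 7.86 CPM, overlapped the lowest control, at 7.59 CPM.

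Gzma measured 5.83, 0.577, 5.79, 2.46 and 3.33 CPM with 6 Gy + INDO, 1.3, 1.21, 1.09, 0.528 and 1.72 CPM after 6 Gy, 3.47, 3.11, 7.2, 7.21 and 5.47 CPM with INDO, and 10.5, 2.88, 7.8, 2.55 and 5.33 CPM in controls. Only the 6 Gy tumors were all below the controls (-2.32, SE 0.51, adjusted p = 0.0041). Tbx21 was 0.0619 to 0.222 CPM after 6 Gy against 0.354 to 0.91 CPM in controls (-2.06, SE 0.48, 0.0063), and Ifng 0.195 to 0.98 CPM against 0.706 to 1.62 CPM (-1.5, SE 0.50, 0.0463, lost in 8 of 10 fits without 1 tumor, and -2.11 without 6 Gy replicate 1).

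Gzmb and Prf1 were not called on day 7, and whether they differed from the receptor genes was not tested. Gzmb averaged 6.64 CPM after 6 Gy against 10.9 CPM in controls, lower as the receptor genes were. It averaged 16.8 CPM with 6 Gy + INDO and 21.2 CPM with INDO. Gzmb measured 23, 2.64, 33.5, 13.4 and 11.3 CPM with 6 Gy + INDO, 9.06, 3.36, 11.5, 3.95 and 5.34 CPM after 6 Gy, and 19.9, 9.2, 31.4, 23.2 and 22.2 CPM with INDO, against 19.5, 6.13, 10.6, 11.4 and 6.87 CPM in controls. Every group overlapped the controls. Prf1 measured 0.881 to 11.5 CPM, 0.917 to 10.5 CPM and 2.33 to 7.66 CPM in these treated groups against 2.91 to 6.77 CPM in controls (0.44, -0.18 and 0.58, SE 0.61 each). Eomes fell with 6 Gy + INDO by a small amount, to 2.92 to 3.98 CPM against 3.99 to 5.11 CPM in controls (-0.33, SE 0.13, 0.043), a call lost with housekeeping scaling, without high-receptor tumors and in 4 of 10 fits without 1 tumor.

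On day 7 the 12 T cell markers summed to 33.3 to 99.7 CPM with 6 Gy + INDO, 51.1 to 57.1 CPM after 6 Gy and 62.1 to 106 CPM with INDO, against 110 to 155 CPM in controls. Without Thy1 the sums were 5.75 to 29.2, 6.79 to 11.5 and 19.0 to 38.3 CPM against 17.8 to 56.5 CPM, so that only the 6 Gy tumors were all below the controls. Fibroblast markers summed to 881 to 3029, 1428 to 3008 and 2513 to 5495 CPM against 7895 to 14963 CPM, and macrophage markers to 472 to 751, 455 to 724 and 641 to 1573 CPM against 853 to 1980 CPM. With INDO, Klrk1 measured 4.87 to 7.54 CPM against 7.59 to 14.1 CPM in controls, and Nkg7 1.43 to 3.71 CPM against 1.69 to 4.31 CPM. What part T cells, macrophages and stroma had in the values of the 10 genes was not tested.

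**Figure D2:**
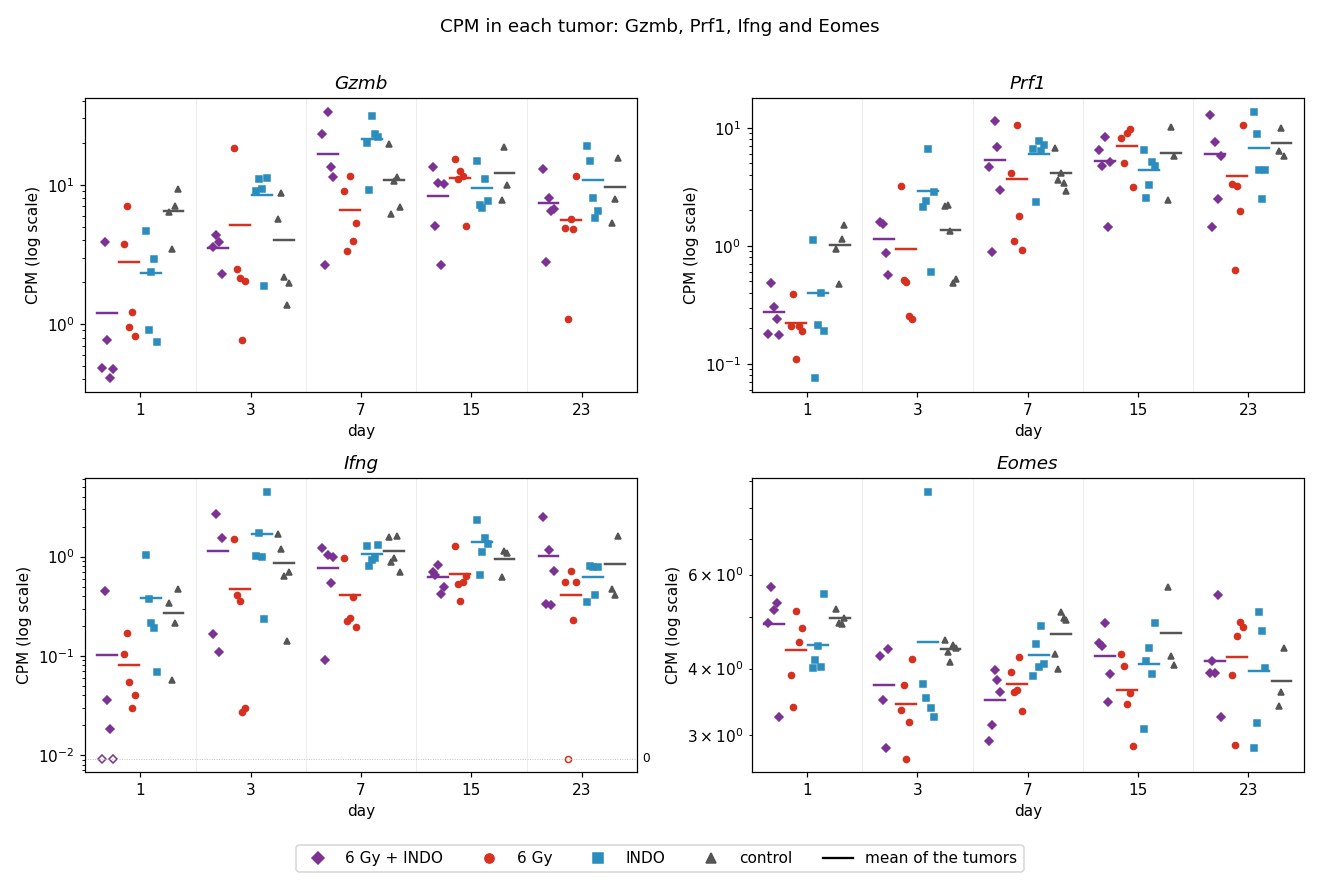
CPM on a log axis in each of 94 tumors for Gzmb, Prf1, Ifng and Eomes, by day and treatment, with bars for means and open points for tumors at 0. The mean of Prf1 was lowest on day 1 in every treatment, and Eomes stayed between 2.71 and 8.58 CPM.

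The comparison of 6 Gy + INDO with 6 Gy asks what COX inhibition adds to IR. On day 7, 2 of the 10 genes were higher with the combination, Nkg7 (1.65, SE 0.54, adjusted p = 0.04) and Gzma (1.71, SE 0.50, 0.028), where 10.1% of genes were higher and 9.3% lower. Nkg7 measured 2.2, 0.0304, 1.54, 0.699 and 1.11 CPM with 6 Gy + INDO and 0.454, 0.248, 0.515, 0.367 and 0.32 CPM after 6 Gy. In all, 4 of the 5 combination tumors were above all 6 Gy tumors and replicate 2 was below them. That tumor was the lowest of its group for Ncr1, Klrk1, Nkg7, Gzma, Gzmb, Prf1, Tbx21 and Ifng. Without it 6 genes were called higher, but leaving out the lowest tumor raises a group by itself. The share of all genes in that fit is not given, and no support for an effect is drawn from this count. The Nkg7 call was lost in 7 of 10 fits without 1 tumor and the Gzma call in 5, and both without the 3 high-receptor tumors of this group (0 calls), while housekeeping scaling and DESeq2 gave 4. Ncr1 (1.5, 0.0628) and Gzmb (1.42, 0.053) stood just outside the limit.

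On the other days no gene of the 10 was called between 6 Gy + INDO and 6 Gy, where 4.67%, 19.7%, 0.00472% and 0% of all genes were called in either direction on days 1, 3, 15 and 23. At an unadjusted p under 0.05 the counts were 0, 0, 0 and 4, and DESeq2 called 0, 0, 0 and 1. The 1 was Tbx21 on day 23, at 1.51, 0.186, 0.441, 0.282 and 0.257 CPM with 6 Gy + INDO and 0.165, 0.0779, 0.158, 0.0766 and 0.161 CPM after 6 Gy (2.04, SE 0.52, edgeR adjusted p = 0.18). All 5 combination tumors were above all 5 irradiated tumors, as they were for 1.39% of all genes. Against INDO alone, 6 Gy + INDO had no call of the 10 on any day (background 0.018%, 4.94%, 1.34%, 0% and 0% in day order), with 1, 1, 2, 5 and 0 at an unadjusted p under 0.05, all lower, and 1, 0, 0, 1 and 0 with DESeq2.

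On days 15 and 23 none of the 10 was called against control. The background was low on both days, with 3 controls each: 1.33% of genes were called with 6 Gy + INDO on day 15, 0.00473% on day 23, and 0% for 6 Gy and INDO on both days. At an unadjusted p under 0.05, 3, 1 and 0 of the 10 were lower on day 15 and 0, 4 and 0 on day 23 (6 Gy + INDO, 6 Gy and INDO in that order), and DESeq2 called 1, 0 and 0 on day 15 and none on day 23. The 1 was Klrk1 with 6 Gy + INDO. On day 23 every 6 Gy tumor was below every control for Klrk1, Nkg7, Gzma and Tbx21 (6.83% of all genes) and every INDO tumor for Nkg7 (4.62%), and on day 15 every 6 Gy tumor for Klrb1c (1.52%). Nkg7 was 1.11, 0.389, 1.11, 0.792 and 1.16 CPM after 6 Gy against 4.76, 2.76 and 4.46 CPM in controls.

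Averaged over the 5 days, with each day weighing alike, 7 of the 10 genes were lower after 6 Gy, 6 with 6 Gy + INDO and 1 with INDO. After 6 Gy the 7 stood beside 10.6% of 29373 genes lower and 9.19% higher, and the backgrounds were 23.2% and 29.6% with 6 Gy + INDO and 17.4% and 16.8% with INDO. None was higher, also at an unadjusted p under 0.05 and with DESeq2, which called 7, 6 and 1 lower. The median of the 10 was -1.30, -0.78 and -0.14 on the log2 scale, against 0.03, 0.19 and 0.07 for all genes tested. Of the 10, Ncr1 had the lowest value in each treatment, -1.91 (SE 0.34, adjusted p = 3.07e-06) with 6 Gy + INDO, -2.24 (SE 0.33, 1.80e-07) after 6 Gy and -0.99 (SE 0.32, 0.0114) with INDO, a 4.72-fold lower level after 6 Gy. The INDO call rested on days 1 and 7, and was lost without either. With INDO the share of the 10 that was lower was below the background, and nothing particular to these genes is read from it.

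Nkg7 averaged -1.32 (SE 0.31) with 6 Gy + INDO and -1.95 (SE 0.30) after 6 Gy, Klrb1c -1.23 and -1.68, Gzma -1.18 and -1.46, Klrk1 -0.75 and -0.99, and Tbx21 -0.81 and -1.62. The Tbx21 call with 6 Gy + INDO did not hold with housekeeping scaling, nor without the high-receptor tumors, day 1 or day 7. The calls of these 5 genes after 6 Gy held in all 45 fits without 1 tumor. Ifng fell after 6 Gy (-1.13, SE 0.37, 0.018, lost without day 1 and without day 7) and was not called with 6 Gy + INDO (-0.37, 0.44). For Gzmb, Prf1 and Eomes no mean was called: Gzmb was -0.58, -0.50 and 0.08, Prf1 -0.45, -0.72 and -0.06, and Eomes -0.14, -0.21 and -0.08 in the order 6 Gy + INDO, 6 Gy and INDO.

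With 6 Gy + INDO against 6 Gy, the mean over days was higher for Tbx21 alone (0.80, SE 0.28, adjusted p = 0.015; background 25.9% higher and 19.8% lower), a call lost without high-receptor tumors, without day 7 and without day 23. Housekeeping scaling called 6 of the 10 and DESeq2 3. The share of the 10 called higher in the main fit was below the background, and nothing particular to Tbx21 is read from it. Against INDO, 6 Gy + INDO was lower for Klrk1 (-0.55, SE 0.18, 0.038) and Nkg7 (-0.94, SE 0.30, 0.03), where 3.54% of genes were lower and 7.21% higher. Leaving out day 3 or day 7 removed both calls, and leaving out 6 Gy + INDO day 1 replicate 2 raised the count to 8. That tumor stood above its group for several of the 10 genes, so its removal lowers the group by itself. The Klrk1 call was lost with housekeeping scaling (-0.41, adjusted p = 0.10), and without high-receptor tumors 1 of the 10 genes was called lower. None of the 10 was lower against 6 Gy, at an unadjusted p under 0.05 or with DESeq2, and none was higher against INDO, likewise.

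**Figure D3:**
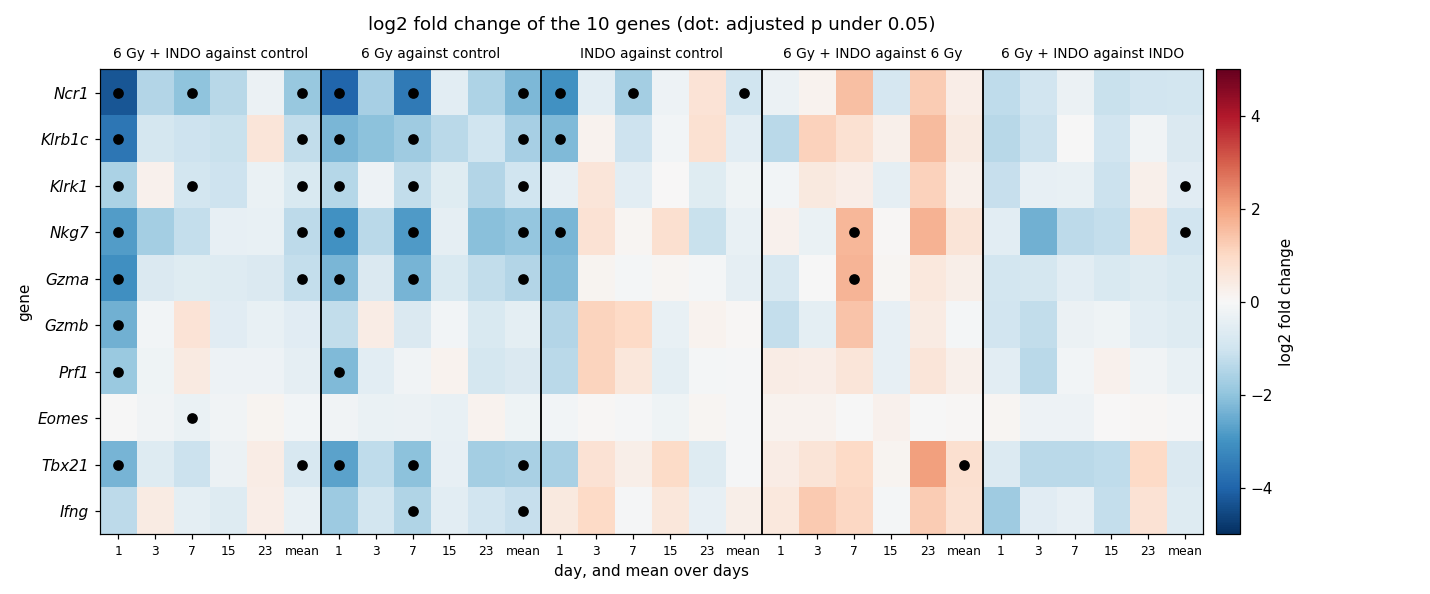
Log2 fold change of each of the 10 genes (rows) on each day and as the mean over days (columns) for 5 comparisons, blue for lower and red for higher in the first-named group, with a dot where the adjusted p was under 0.05. Dots mark 8, 7 and 3 genes on day 1 with 6 Gy + INDO, 6 Gy and INDO, and 7 genes on day 7 after 6 Gy.

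Whether a treatment effect differed between days was tested with 4 contrasts at once. With 6 Gy + INDO it did for Klrb1c (adjusted p = 0.0056) and Ncr1 (0.039), where 33.6% of all genes passed; without high-receptor tumors 1 of the 10 genes passed. The Klrb1c effect was -3.61 on day 1 and -0.89 and -1.04 on days 3 and 7, and the Ncr1 effect -4.27, -1.46 and -2.02. No gene of the 10 passed after 6 Gy (background 3.82%; 1 at an unadjusted p under 0.05) or with INDO (2.66%; 5). DESeq2 was not run on this test.

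Control tumors changed over the 23 days for Prf1 (adjusted p = 0.0024) and Ncr1 (0.015), where 30.2% of all genes did. The share of the 10 was below that of all genes, and nothing particular to these genes is read from it. Prf1 measured 0.475 to 1.51 CPM on day 1, 0.486 to 2.21 CPM on day 3, 2.91 to 6.77 CPM on day 7, 2.44 to 10.2 CPM on day 15 and 5.81 to 10.0 CPM on day 23. All control tumors of days 7, 15 and 23 were above all those of days 1 and 3 for Prf1. Ncr1 averaged 1.07 ± 0.509, 1.10 ± 0.777, 2.52 ± 1.37, 0.425 ± 0.257 and 0.376 ± 0.272 CPM in the same order (SD, n = 4, 5, 5, 3 and 3), and all controls of days 15 and 23 were below all those of day 7. Eomes group means in controls lay between 3.80 ± 0.514 and 4.97 ± 0.148 CPM (adjusted p = 0.522).

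Across tumors 9 of the 10 genes varied together and Eomes did not. With the mean of each treatment and day taken out, Spearman's rho over 94 tumors was 0.28 to 0.83 (median 0.54) in the 36 pairs among the 9, and -0.08 to 0.26 (median 0.04) in the 9 pairs with Eomes. The closest pairs were Gzma with Gzmb (0.83), Gzmb with Prf1 (0.81) and Klrk1 with Ifng (0.79). Tbx21 was closest to Nkg7 (0.75). These points share libraries and depth and are given as a description. Eomes, although a defining factor of NK cells, thus followed neither Ncr1 (0.04) nor the granule genes in these tumors, and its level varied little, with group means of 3.43 to 4.97 CPM while those of Ncr1 ran over 0.0498 to 2.52 CPM.

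**Figure D4:**
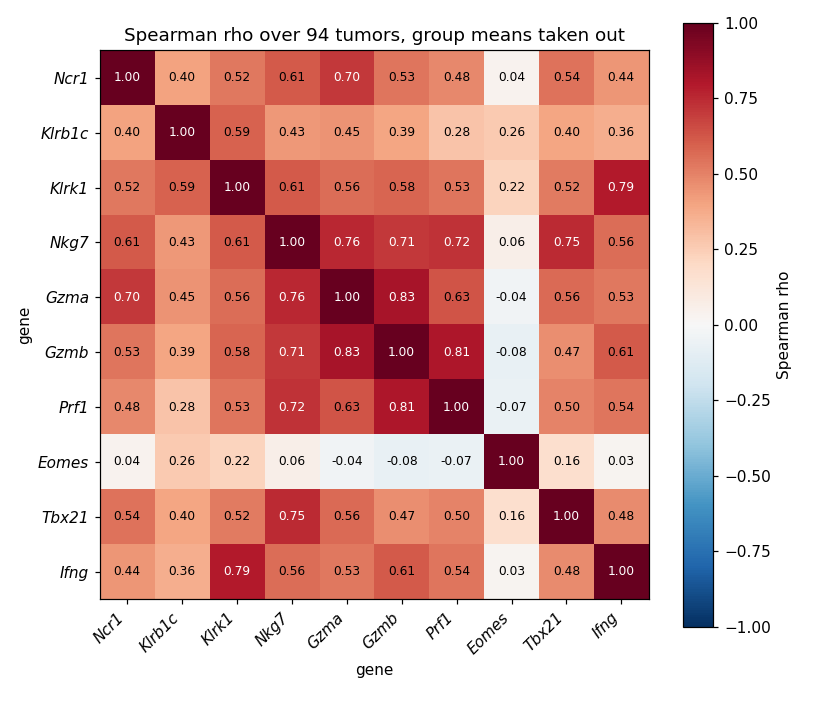
Spearman's rho between the 10 genes over 94 tumors after the mean of each treatment and day was removed, with the value in each cell. The row of Eomes holds values of -0.08 to 0.26, and the other pairs 0.28 to 0.83.

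Genes with a mean of at least 1 CPM numbered 15472. Of those outside the 10, the ones most like the mean of the 10 were Gm4759, Ms4a4b, Klrc1, Cd3g, Cd8a, Gbp5, Zc3h12d, Gm10134, Cfb and Cyp4v3 (rho 0.76 to 0.83). Klrc1 encodes the NK receptor NKG2A, Cd3g a chain of the T cell receptor complex and Cd8a the CD8 coreceptor. Genes close to Ifng included Gbp5 (0.88) and Gm12250 (0.88), and Gzmb was most like its fellow granule genes Gzma and Prf1 and then B2m (0.73), the light chain of MHC class I. Nkg7 had a rho of 0.85 with Cd8a and 0.78 with the NK marker Klrd1, and Ncr1 0.49 and 0.67.

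Other genes of the pathway were read as means over days, against the 23.2%, 10.6% and 17.4% of all genes that were lower with 6 Gy + INDO, after 6 Gy and with INDO. Of 17 tested NK receptor and adaptor genes, 13 were lower with 6 Gy + INDO (9 with housekeeping scaling), 16 after 6 Gy and 5 with INDO (medians -0.92, -1.33 and -0.42 against 0.19, 0.03 and 0.07 for all genes). Klrd1, the CD94 partner of NKG2A, fell with 6 Gy + INDO (-1.44) and after 6 Gy (-1.45), and Cd226, the receptor DNAM-1, after 6 Gy (-1.83, SE 0.30). None of the 17 was higher in these comparisons, also at an unadjusted p under 0.05 and with DESeq2.

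Of 16 other granule and killing genes, 5 were lower with 6 Gy + INDO (1 lower and 2 higher with housekeeping scaling, 3 lower without high-receptor tumors), 6 after 6 Gy and 3 with INDO. After 6 Gy these included Fasl, the ligand of the death receptor Fas (-1.51, SE 0.25), Gzmk, granzyme K (-1.70, SE 0.40), and Cst7, the cathepsin inhibitor cystatin F (-0.90, SE 0.20). With INDO the granzyme gene Gzme fell (-1.09, SE 0.25). The median of the list was -0.16, -0.01 and -0.16 in the order 6 Gy + INDO, 6 Gy and INDO, against 0.19, 0.03 and 0.07 for all genes. The counts with 6 Gy + INDO and with INDO were near the background, and nothing particular to the list is read from them.

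Upstream of the effector genes, 8 of 12 tested cytokine and receptor genes were lower with 6 Gy + INDO, 7 after 6 Gy and 3 with INDO, with 2 higher with INDO (5, 7 and 1 lower with housekeeping scaling). The INDO counts were near the 17.4% lower and 16.8% higher of all genes. Il12b, the p40 chain of IL-12, which drives interferon-γ production, fell in each (-2.06, -1.59 and -0.93, SE 0.28, 0.26 and 0.26). Stat4, which transmits the IL-12 signal, fell with 6 Gy + INDO (-1.26) and after 6 Gy (-1.18), as did Il2rg, the common γ chain (-0.80 and -1.05). Of 7 tested factor genes beyond Tbx21 and Eomes, 4, 3 and 1 were lower in the same order (2, 3 and 0 with housekeeping scaling, 2, 3 and 1 without high-receptor tumors), among them Tox (-1.69) and Runx3 (-0.50) after 6 Gy.

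Downstream, 2, 4 and 0 of 10 genes induced by interferon-γ were lower (1, 4 and 0 with housekeeping scaling), of which the counts with 6 Gy + INDO and with INDO were below the background share, with H2-Aa at -0.97 with 6 Gy + INDO and -0.89 after 6 Gy, and Cxcl9 at -1.02 after 6 Gy. With INDO no gene of this list passed at an unadjusted p under 0.05 or with DESeq2. Xcl1, a chemokine of NK and CD8+ T cells, fell after 6 Gy (-1.82, SE 0.37), while Ccl5 was higher with 6 Gy + INDO (0.70, SE 0.22). Serpinb9, the inhibitor of granzyme B, fell with 6 Gy + INDO (-0.64, SE 0.10) and with INDO (-0.48, SE 0.10) and was not called after 6 Gy (-0.14). Of the 5 ligand genes of NKG2D, Raet1d fell with 6 Gy + INDO (-0.49, lost with housekeeping scaling) and with INDO (-0.47), and H60c was higher with 6 Gy + INDO (1.23, SE 0.50), a call lost without high-receptor tumors. None of these ligands was called after 6 Gy, by edgeR at an unadjusted p under 0.05 or by DESeq2 after adjustment.

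Beside these genes, all 12 T cell markers were lower with 6 Gy + INDO and after 6 Gy and 1, Thy1, with INDO as a mean over days (medians -0.87, -1.47 and -0.05). Of 7 macrophage markers 6, 7 and 4 were lower (-0.57, -0.66 and -0.30), all 6 fibroblast markers were lower in each treatment (-1.31, -1.03 and -1.21) and so were all 5 endothelial markers (-0.98, -0.83 and -0.74). Of 6 tumor epithelium markers, 3, 0 and 4 were lower (medians -0.21, 0.06 and -0.21), and none was lower after 6 Gy with DESeq2 or at an unadjusted p under 0.05. Of the 10 NK and cytotoxic genes, 6, 7 and 1 were lower in the same order, beside 23.2%, 10.6% and 17.4% of all genes. The part of each cell type was not tested.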

How the data were processed

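Total RNA of 94 whole tumors was sequenced as stranded libraries. The authors trimmed reads with cutadapt, and their processing notes also name STAR, Partek 11.0.24.0328 and the mm10 build, without the counting settings. They deposited expected counts, which need not be whole where a read fits several genes. Here they were rounded and tested with edgeR 4.0.16 (R 4.3.3; TMM factors, filterByExpr, quasi-likelihood F test, Benjamini-Hochberg over all genes tested). The 4 groups of a day were fitted together, and a single fit of the 94 tumors gave the means over days. All 10 genes passed the filter, so the exact permutation test planned for genes that failed it was not needed. SE is the log2 fold change divided by the square root of F. Correlations used log2(CPM + 0.5). DESeq2 1.42.0, RLE factors, housekeeping scaling with 14 genes, no filter, a replicate block, other sample sets and an unadjusted p under 0.05 with a fold of at least 2 were alternatives, and leaving out the 11 high-receptor tumors, and Thy1 from the T cell markers, was chosen after seeing the data. The 10 genes and all lists were chosen with earlier results of these data known. Every one of the 10 is named, and of each wider list at most 4 genes that passed over days, by smallest p. The fit was tested on simulated data. Among 178 pairs of tumors of 1 group none were as alike as repeat counts of 1 library. A gene withheld from the text is not reported here.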

Additional observations from a re-analysis of the deposited data

Results flagged for a closer look

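Of 180 combinations of a gene with a group of 4 or 5 tumors, 28 held a tumor far from the others, in 12 tumors. The genes were measured in the same tumors and 9 of them varied together. The 28 are therefore not independent, and no rate expected by chance is set beside them. The tumor 6 Gy day 3 replicate 1 stood above its group for 9 genes, with Ncr1 at 1.05, Klrb1c at 0.506, Klrk1 at 10.9, Nkg7 at 1.52, Gzma at 5.60, Gzmb at 18.3, Prf1 at 3.18, Tbx21 at 0.396 and Ifng at 1.52 CPM. The tumor 6 Gy + INDO day 1 replicate 2 stood above its group for 6, with Ncr1 at 0.212, Klrk1 at 3.29, Gzma at 0.969, Gzmb at 3.88, Tbx21 at 0.227 and Ifng at 0.454 CPM. Its T cell markers other than Thy1 summed to 9.65 CPM against 4.40 to 6.56 CPM in the rest of its group, and the 4 NK markers outside the 10 genes to 0.591 against 0.240 to 1.46 CPM. INDO day 3 replicate 3 stood above for Nkg7 (5.57 CPM), Eomes (8.58 CPM) and Tbx21 (2.59 CPM), and 6 Gy day 7 replicate 1 for Klrk1 (7.86 CPM) and Ifng (0.980 CPM).

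Single genes were high in 6 Gy + INDO day 23 replicate 1 (Tbx21, 1.51 CPM), 6 Gy day 15 replicate 1 (Nkg7, 2.92 CPM), 6 Gy day 23 replicate 5 (Prf1, 10.6 CPM), INDO day 1 replicate 5 (Eomes, 5.52 CPM) and INDO day 15 replicate 1 (Ncr1, 0.739 CPM). They were low in INDO day 3 replicate 4 (Gzmb, 1.87 CPM), INDO day 7 replicate 2 (Prf1, 2.33 CPM) and control day 1 replicate 2 (Klrb1c, 0.195 CPM). The effect of 6 Gy + INDO differed between days for Ncr1 (adjusted p = 0.0386) and Klrb1c (adjusted p = 0.00565), by edgeR's test of 4 contrasts. Of all genes, 33.6% passed this test, and nothing particular to these 2 genes is read from it.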

How the results depend on the processing

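Of 1468 counts of the 10 genes under alternatives, 1367 were within 1.5 times the reported count. No called fold change turned its sign, and 31 of 48 called values passed in every setting applied to them. The limit of an unadjusted p under 0.05 with a fold of at least 2 was applied to the counts only, not to these 48 values. The exceptions follow as counts of the 10 genes, and the cause was not tested. DESeq2 gave 5 lower for INDO on day 1 and 5 lower for 6 Gy + INDO on day 7 (reported 3 and 3), 1 lower for 6 Gy on day 3, for 6 Gy + INDO on day 15 and for 6 Gy + INDO against INDO on days 1 and 15 (0 each), and for 6 Gy + INDO against 6 Gy 4, 1 and 3 higher on day 7, day 23 and over days (2, 0 and 1). An unadjusted p under 0.05 with a fold of at least 2 gave 6 lower for INDO on day 1, 2 lower for 6 Gy on day 3, 2 lower for INDO on day 7, 1 and 4 lower for 6 Gy on days 15 and 23, 3 lower for 6 Gy + INDO on day 15, 1, 1, 2 and 4 lower against INDO on days 1, 3, 7 and 15, 4 and 4 higher against 6 Gy on days 7 and 23, and 0 over days for INDO and for both comparisons of 6 Gy + INDO with a single treatment. All 94 tumors in 1 fit gave 1 lower on day 3 for 6 Gy, for 6 Gy + INDO and against INDO, and 1 higher against 6 Gy on days 7 and 23. Housekeeping scaling, which moved the median of all genes by -0.13 to 0.40, gave 0 lower for INDO and 1 lower for 6 Gy + INDO on day 7, 4 and 6 higher against 6 Gy on day 7 and over days, and 1 lower against INDO over days. No filter gave 6 lower for 6 Gy + INDO on day 7 and 1 differing between days. Without high-receptor tumors the counts were 1 lower for 6 Gy + INDO on day 7, 0 and 0 higher against 6 Gy on day 7 and over days, 1 lower against INDO over days and 1 differing between days. Over days, INDO had 0, 0 and 2 lower without days 1, 7 and 23, 6 Gy + INDO against 6 Gy had 2, 2, 0 and 0 higher without days 1, 3, 7 and 23, and against INDO 1, 0, 0 and 1 lower without days 1, 3, 7 and 15. Without 1 tumor the counts ran over 2 to 5 lower for INDO on day 1, 0 to 2 lower for 6 Gy on day 3, 0 to 1 higher against 6 Gy on day 3, 0 to 2 lower for INDO on day 7, 0 to 6 higher against 6 Gy on day 7, 0 to 4 higher against 6 Gy over days and 0 to 8 lower against INDO over days. Replicate numbers did not pair the tumors: deviations of same-numbered tumors had a median correlation of 0.08 over 132 pairs, against -0.02 over 528 other pairs. With the replicate block there were 1 lower for 6 Gy on day 3, 0 lower and 1 higher for INDO on day 7, 1 and 2 higher against 6 Gy on day 7 and over days, 4 lower against INDO over days and 4 differing between days. Low counts limit Ncr1, Klrb1c and Tbx21, whose median tumors held 12.5, 16.8 and 13 reads, and days 15 and 23 rest on 3 controls each.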
